A study of Mus musculus with 6 samples.

Results

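The nuclear genes of respiratory complex I carry symbols that start with Nduf, and 43 of the 20239 named probe sets of the array table had such a symbol. They were taken by symbol alone, although the set was chosen with earlier results of these data known. Each is 1 gene with 1 probe set. By textbook role they were sorted into 6 core subunits, 27 accessory subunits, 7 assembly factors and 3 others. The 3 others were Ndufa4, now counted as a subunit of complex IV, its paralogue Ndufa4l2, and Ndufa11b, a relative of Ndufa11 by name. The accessory subunits Ndufab1, Ndufb1 and Ndufb4, the assembly factor Ndufaf8 and the core subunits encoded by mitochondrial DNA were not analysed here.

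Complex I, NADH:ubiquinone oxidoreductase, is the entry point of electrons from NADH into the respiratory chain, and it pumps protons across the inner mitochondrial membrane. Its matrix arm holds the N module, which oxidises NADH, and the Q module, which passes the electrons to ubiquinone. Its membrane arm holds the pumping modules, called here the ND1, ND2, ND4 and ND5 modules after the mitochondrially encoded subunits they contain. Core subunits carry out catalysis, accessory subunits surround and stabilise them, and assembly factors help to build the enzyme without staying in it. Heart muscle is rich in mitochondria and depends on this chain for contraction.

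Total RNA came from heart ventricles of male mice, aged 3.5 weeks, of the 129/Sv background, hybridised to Affymetrix Mouse Gene 1.0 ST arrays. The labels put 3 mice in the Hspa4-/- group, a genotype without the Hsp110-family chaperone gene Hspa4, and 3 in the Hspa4+/+ group, called wild type below. Values are log2 expression as deposited, 1 for each probe set and array, and each array was taken as a separate mouse. The groups differ in no other labelled respect, and the sources used here do not give the structure of the allele. The comparison asks which ventricular transcripts differ in young mice without the chaperone.

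Hspa4 itself read 9.33, 6.63 and 6.75 in order of replicate on the Hspa4-/- arrays and 9.74, 9.50 and 9.48 on the wild-type arrays, so the array labelled Hspa4-/- replicate 1 went against its label. With all 6 arrays its log2 difference was −2.01 (SE 0.58; limma, adjusted p = 0.263; exact two-sided permutation test, p = 0.1, which is the lowest possible p for 3 arrays against 3). Xist, the RNA of the inactive X chromosome, also set that array apart. Its value was 7.68, the other 5 arrays had 5.51 to 5.69, and every mouse is labelled male. Each result is therefore given with all 6 arrays and with the 5 arrays left without that one. The forms share 5 arrays and are not independent. The cardiomyocyte genes Myh6, Tnnt2, Tnni3, Actc1, Myl2, Myl3, Ryr2, Mybpc3, Pln and Atp2a2, which are abundant in heart muscle and of which most are also expressed in the atria, read between 10.13 and 13.33 over all arrays. Array means of the whole table lay between 6.76 and 6.77, and array SDs between 1.19 and 1.27.

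Most complex I subunits had a slightly higher mean over the arrays labelled Hspa4-/-, and the assembly factors were divided, but no member passed the test. By array, 19, 31 and 31 of the 43 members were above their wild-type mean on Hspa4-/- replicates 1, 2 and 3, and 24, 29 and 12 were on wild-type replicates 1, 2 and 3, so replicate 1 did not share the higher values and wild-type replicate 2 came close to them. With all 6 arrays 32 of 43 members had a mean above wild type and 11 below, with a median log2 difference of 0.09 beside −0.01 over all genes. With 5 arrays 34 were above and 9 below, with a median of 0.11 beside −0.02. The difference of single members ran from −0.31 to 0.37 with 6 arrays and from −0.26 to 0.52 with 5, and Ndufb8 with 5 arrays was the 1 member that differed by more than 0.5. In bulk tissue, fewer cells of a type and less RNA per cell cannot be told apart.

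By limma with Benjamini-Hochberg adjustment over all genes, 0 of 43 members had an adjusted p under 0.05 in either form, where 0% of all genes passed with 6 arrays and 0.44% with 5. At an unadjusted p under 0.05, 8 members were higher and 2 lower with 6 arrays, against backgrounds of 5.64% and 5.53% of all genes. With 5 arrays 12 were higher and 2 lower, against 8.55% and 6.36%. Groups were fully apart, with no overlap of their values, in 5 members on the higher side and 5 on the lower side with 6 arrays, against 6.08% and 9.07% of all genes. With 5 arrays these counts were 17 and 5, against 14.4% and 18.9%. With 5 arrays the 17 members were thus a larger share of the 43 than the background on the higher side, while the 5 lower members were not. Dropping the lowest 50% of genes by mean value raised the background. No overlap on either side was then found in 53.7% of 41 members and 38% of all genes with 5 arrays. With 6 arrays these shares were 24.4% and 19.5%. Without wild-type replicate 2, the 6-array form had 21 members without overlap in place of 10, or 48.8% in place of 23.3%, while the share over all genes was 31.5% in place of 15.1%.

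**Figure D1:**
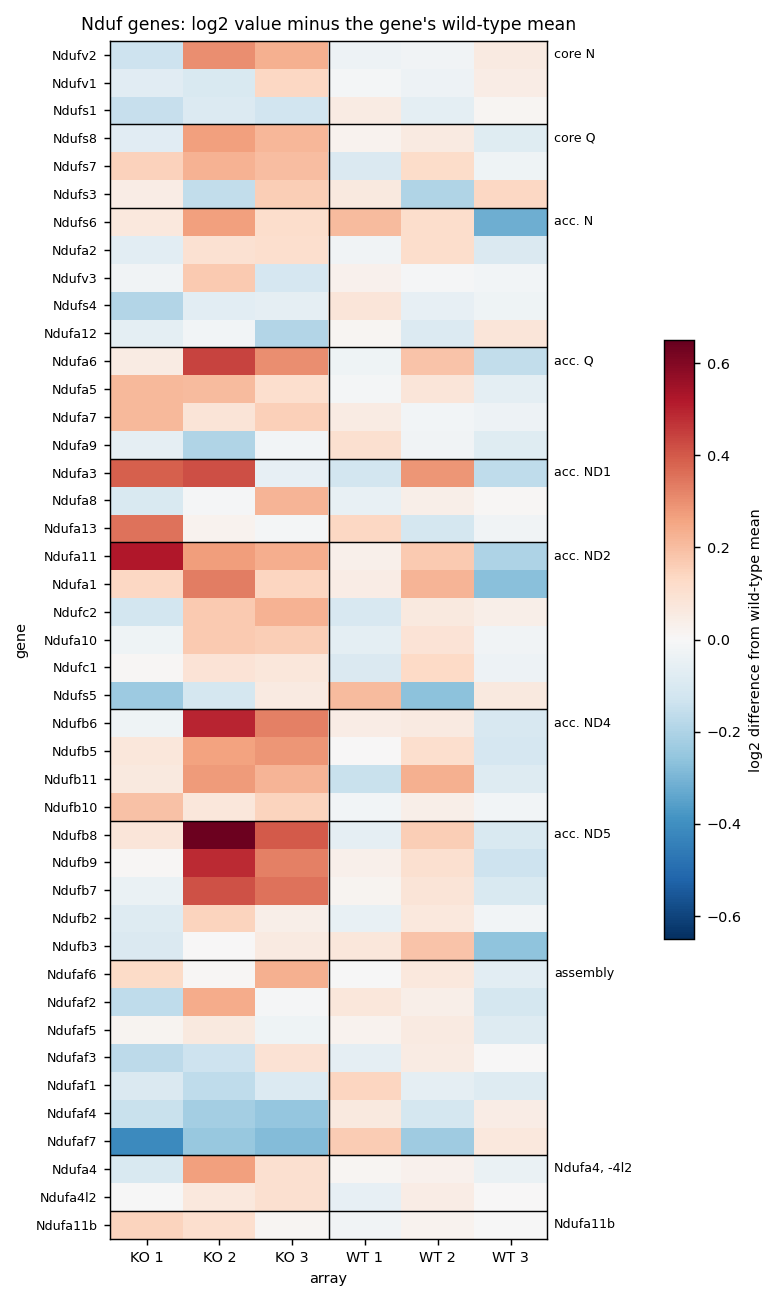
Heat map of the 43 Nduf genes (rows, grouped by class and module) on the 6 arrays (columns; KO stands for Hspa4-/-, WT for wild type, the number for the replicate). Colour is the log2 value minus the gene's wild-type mean. Red is concentrated in the columns of Hspa4-/- replicates 2 and 3 within the ND4 and ND5 rows, where Ndufb8 stood highest, and blue runs across all 3 Hspa4-/- columns for Ndufaf4 and Ndufaf7.

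Among the core subunits, Ndufv2, Ndufs8 and Ndufs7 stood above wild type on Hspa4-/- replicates 2 and 3, and Ndufs1 stood below it. Of the 6, 4 were higher with 6 arrays (median 0.07) and 5 with 5 arrays (median 0.11). Ndufv2, an iron-sulphur subunit of the N module that works beside Ndufv1 in NADH oxidation, read 9.89, 10.33 and 10.26 on the 3 arrays labelled Hspa4-/-, in replicate order, and 9.99, 10.001 and 10.08 on the wild-type arrays in the same order. Replicate 1 was the lowest of all 6 arrays, and replicates 2 and 3 were the highest. The log2 difference was 0.13 (SE 0.11; limma, adjusted p = 0.725) with 6 arrays and 0.27 (SE 0.07, 95% interval 0.11 to 0.43; limma, adjusted p = 0.137) with 5.

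Ndufs8, which holds iron-sulphur clusters in the Q module, read 7.86, 8.20 and 8.15 against 7.96, 7.99 and 7.86. Replicates 2 and 3 were again the highest arrays, and replicate 1 lay within the wild-type range. Its difference was 0.14 (SE 0.09) with 6 arrays and 0.24 (SE 0.07; limma, adjusted p = 0.182) with 5. In Ndufs7, which carries the last iron-sulphur cluster before ubiquinone, all 3 arrays labelled Hspa4-/- were above all wild-type arrays (10.86, 10.93 and 10.91 against 10.61, 10.83 and 10.68). Its difference of 0.19 (SE 0.07; limma, adjusted p = 0.367) with 6 arrays was 0.21 with 5 (limma, adjusted p = 0.272).

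Ndufs1, the large iron-sulphur subunit of the N module, lay below wild type without overlap between groups. It read 12.33, 12.39 and 12.36 on the arrays labelled Hspa4-/- and 12.53, 12.42 and 12.49 in wild type, a difference of −0.12 (SE 0.06; limma, adjusted p = 0.532) with 6 arrays and −0.11 with 5. Ndufv1, which binds NADH and flavin, overlapped between groups (10.07, 10.04 and 10.28 against 10.13, 10.11 and 10.19), and its differences were −0.01 with 6 arrays and 0.02 with 5 (limma, adjusted p = 0.977 and 0.947; 95% interval with 5 arrays −0.18 to 0.21). So did Ndufs3, a scaffold of the Q module (10.10, 9.89 and 10.22 against 10.12, 9.86 and 10.19), with a 6-array difference of 0.02 (limma, adjusted p = 0.98) and a 5-array interval of −0.28 to 0.28. Both intervals hold 0.

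With 5 arrays the 4 highest differences of the set lay in accessory subunits of the far end of the membrane arm, the ND4 and ND5 modules. Of the 9 measured members of these modules, 8 were above wild type with 6 arrays and 9 with 5. The median difference of the 5 ND5 members was 0.24 with 6 arrays and 0.38 with 5, and that of the 4 ND4 members was 0.20 and 0.26. Ndufb8, a single-pass membrane subunit of the ND5 module, read 8.06, 8.61 and 8.37 on the 3 arrays labelled Hspa4-/-, in replicate order, and 7.92, 8.13 and 7.87 on the wild-type arrays. Replicates 2 and 3 lay above every wild-type array, and replicate 1 lay within the wild-type range. The log2 difference was 0.37 (SE 0.13, 95% interval 0.08 to 0.67; limma, adjusted p = 0.332) with 6 arrays and 0.52 (SE 0.10, 95% interval 0.28 to 0.75; limma, adjusted p = 0.0737) with 5, which is 1.43-fold.

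Ndufb7, which faces the intermembrane space, had the same order, with 9.59, 10.05 and 9.99 against 9.66, 9.72 and 9.54, and a 5-array difference of 0.38 (SE 0.08; limma, adjusted p = 0.0778). Ndufb9, a LYR-motif protein that binds the mitochondrial acyl carrier protein, read 9.87, 10.35 and 10.19 against 9.89, 9.96 and 9.73 and differed by 0.41 (SE 0.09; limma, adjusted p = 0.0949). In the ND4 module, Ndufb6 read 9.16, 9.68 and 9.52 against 9.24, 9.25 and 9.09 and differed by 0.41 (SE 0.09; limma, adjusted p = 0.078). In these 3 genes too, Hspa4-/- replicates 2 and 3 were the highest 2 arrays, and replicate 1 lay at the wild-type level.

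Ndufb5, also of the ND4 module, read 10.57, 10.76 and 10.78 against 10.50, 10.61 and 10.39, with a difference of 0.21 (SE 0.08) with 6 arrays and 0.27 (SE 0.08; limma, adjusted p = 0.177) with 5. With all 6 arrays the differences of Ndufb7, Ndufb9 and Ndufb6 were 0.24, 0.27 and 0.26, with adjusted p between 0.435 and 0.483 (limma). The other 4 members of these modules, Ndufb2, Ndufb3, Ndufb10 and Ndufb11, had 5-array differences between 0.03 and 0.25.

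Some of these members passed with 5 arrays when wild-type replicate 2 was left out or when array weights were used. With wild-type replicate 2 left out of the 5 arrays, which leaves 2 against 2, 7 members passed (limma): Ndufb8 (0.60, SE 0.09, adjusted p = 0.0169), Ndufa6 (0.46), Ndufb7 (0.43), Ndufb9 (0.46), Ndufb6 (0.44) and Ndufb11 (0.37) upward, and Ndufaf7 (−0.38, SE 0.08, adjusted p = 0.035) downward. In that setting 4.32% of all genes passed, and 0 members passed without any other single array of the 4. Array weights, which give less weight to arrays that fit the model poorly, let Ndufb8 (adjusted p = 0.0398) and Ndufb7 (adjusted p = 0.044) pass with 5 arrays (limma), where 1.59% of all genes did.

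**Figure D2:**
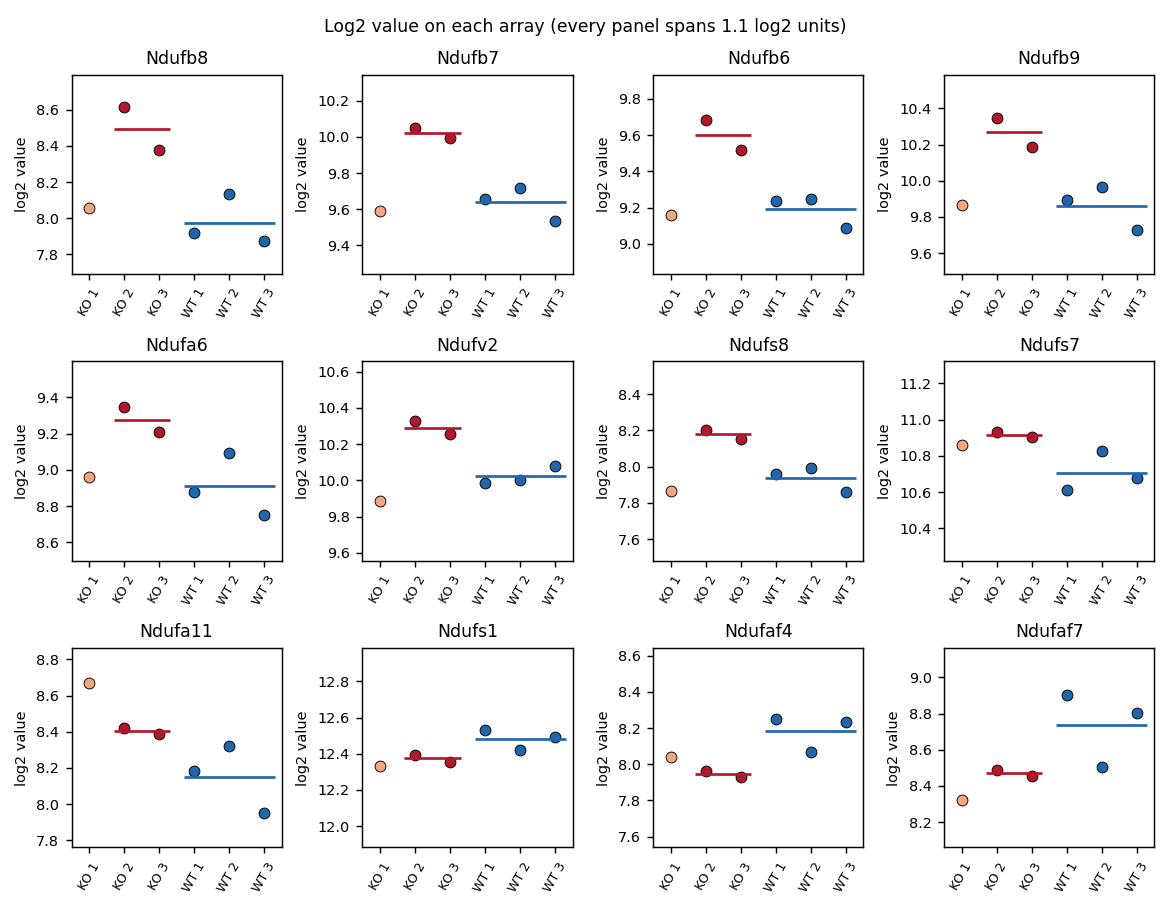
Log2 values of 12 Nduf genes on each of the 6 arrays (KO stands for Hspa4-/-, WT for wild type). Each panel spans the same range, the pale point is Hspa4-/- replicate 1, the dark red line is the mean of Hspa4-/- replicates 2 and 3, and the blue line is the wild-type mean of 3 arrays. In Ndufb8, Ndufb7, Ndufb6 and Ndufb9 the pale point lies with wild type, whereas in Ndufs7, Ndufa11, Ndufs1, Ndufaf4 and Ndufaf7 it lies on the side of the other Hspa4-/- arrays.

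In the ND1 and ND2 modules at the near end of the membrane arm, 8 of 9 members were above wild type in both forms. The medians of the 3 ND1 and 6 ND2 members were 0.12 and 0.10 with 6 arrays and 0.11 and 0.18 with 5. Ndufa11, an accessory subunit near the junction of ND2 and ND4, had the largest difference of these with 6 arrays. It read 8.67, 8.42 and 8.39 on the arrays labelled Hspa4-/- and 8.18, 8.32 and 7.95 in wild type, with no overlap and with replicate 1 the highest. Its log2 difference was 0.34 (SE 0.11, 95% interval 0.10 to 0.58; limma, adjusted p = 0.289), the smallest adjusted p of the 43 members with 6 arrays, and 0.25 (SE 0.10; limma, adjusted p = 0.306) with 5. Ndufa11b, which may share probe sequence with it, read 8.59, 8.56 and 8.46 against 8.43, 8.47 and 8.45, with overlap. Sharing of probes was not tested.

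Ndufc2, a membrane subunit of the ND2 module, read 7.86, 8.15 and 8.21 against 7.88, 8.05 and 8.02, so only Hspa4-/- replicates 2 and 3 were above the wild-type range, and replicate 1 was below it. Its 5-array difference was 0.20 (SE 0.08; limma, adjusted p = 0.281). The other members of the ND1 and ND2 modules, namely Ndufa1, Ndufa3, Ndufa8, Ndufa10, Ndufa13, Ndufc1 and Ndufs5, had 5-array differences between −0.03 and 0.24. Over the whole membrane arm, 16 of 18 accessory subunits were higher with 6 arrays (median 0.16) and 17 of 18 with 5 (median 0.19).

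Accessory subunits of the matrix arm were mixed. In the Q module, Ndufa6, a LYR-motif protein like Ndufb9, read 8.96, 9.35 and 9.21 against 8.88, 9.10 and 8.75. Hspa4-/- replicates 2 and 3 were again the highest arrays, and its difference was 0.26 (SE 0.11) with 6 arrays and 0.37 (SE 0.11; limma, adjusted p = 0.163) with 5. Ndufa5 (8.66, 8.65 and 8.56 against 8.44, 8.53 and 8.39) and Ndufa7 (6.84, 6.71 and 6.79 against 6.68, 6.61 and 6.60), peripheral subunits of the same module, differed without overlap in both forms. Their 6-array differences were 0.17 (SE 0.07; limma, adjusted p = 0.385) and 0.15 (SE 0.07; limma, adjusted p = 0.444). Ndufa9, whose protein holds a nucleotide cofactor in the Q module, had a lower mean, with overlap and a 5-array difference of −0.11.

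In the N module the 5 accessory subunits Ndufv3, Ndufs4, Ndufs6, Ndufa2 and Ndufa12 had 5-array differences between −0.10 and 0.19, with a median of 0.03. Ndufs4, a subunit whose loss causes Leigh syndrome in people, lay below wild type on all 3 arrays labelled Hspa4-/- (8.90, 9.02 and 9.03 against 9.17, 9.04 and 9.06), with a 6-array difference of −0.11 (SE 0.07; limma, adjusted p = 0.641). Over the matrix arm, core and accessory together, 10 of 15 genes were higher with 6 arrays (median 0.05) and 11 of 15 with 5 (median 0.10). The medians of the arms were not tested against each other.

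Of the assembly factors, 3 of 7 were higher and 4 lower in both forms, with a median of −0.07 with 6 arrays and −0.02 with 5. Whether they differ from the subunits as a class was not tested. Ndufaf7, a methyltransferase that acts early in assembly, read 8.32, 8.49 and 8.46 on the arrays labelled Hspa4-/- and 8.90, 8.51 and 8.80 in wild type. All 3 of the former lay below all 3 of the latter, although replicate 2 was only just below the lowest wild-type array. The difference was −0.31 (SE 0.10, 95% interval −0.55 to −0.08; limma, adjusted p = 0.295) with 6 arrays and −0.26 (SE 0.11; limma, adjusted p = 0.317) with 5.

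Ndufaf4, which works with Ndufaf3 in building the Q module, also lay lower without overlap (8.04, 7.96 and 7.93 against 8.25, 8.07 and 8.23). Its difference was −0.21 (SE 0.07; limma, adjusted p = 0.334) with 6 arrays and −0.24 (SE 0.08, 95% interval −0.42 to −0.06; limma, adjusted p = 0.215) with 5. Ndufaf1, which helps to assemble the membrane arm around ND2, read 8.31, 8.24 and 8.32 against 8.55, 8.35 and 8.32, differences of −0.12 with 6 arrays and −0.13 with 5 (limma, adjusted p = 0.641 and 0.54). The groups nearly touch, since wild-type replicate 3 stood just above Hspa4-/- replicate 3.

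The remaining assembly factors overlapped between groups. Ndufaf6, an early assembly factor, differed by 0.12 (SE 0.08) with 6 arrays. Ndufaf2, which holds the place of Ndufa12 during late assembly, differed by 0.02 with 6 arrays and 0.12 with 5, and Ndufaf3 by −0.07 and −0.02. Ndufaf5, a hydroxylase that modifies Ndufs7, differed by 0.02 and 0.02. The adjusted p of these 4 genes was at least 0.627 with 6 arrays and at least 0.568 with 5 (limma). The sign of Ndufaf2 turned under quantile normalisation with 6 arrays. Ndufa4, counted with complex IV, read 12.03, 12.40 and 12.23 against 12.14, 12.16 and 12.09 and followed the pattern of Ndufv2, with a 5-array difference of 0.19 (SE 0.08; limma, adjusted p = 0.302).

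**Figure D3:**
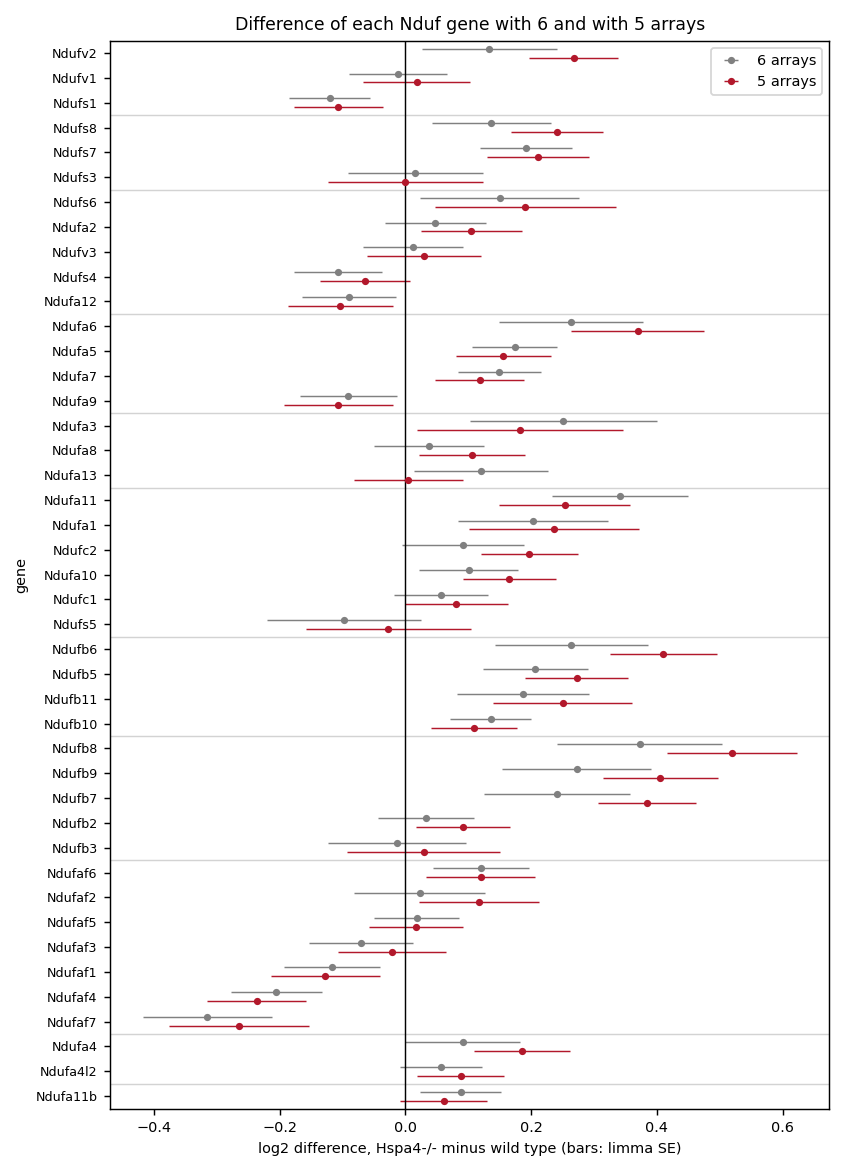
Log2 difference, Hspa4-/- minus wild type, of each of the 43 Nduf genes with all 6 arrays (grey) and with the 5 arrays left without Hspa4-/- replicate 1 (red). Bars are limma's moderated SE and genes are grouped as in the heat map. Points lie to the right of 0 for most subunits, most of all Ndufb8, Ndufb6, Ndufb9 and Ndufb7 with 5 arrays. Among those to the left are the assembly factors Ndufaf7, Ndufaf4 and Ndufaf1 and the subunits Ndufs1, Ndufa9, Ndufa12 and Ndufs4.

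The array labelled Hspa4-/- replicate 1 did not behave alike across members. It stood above all wild-type arrays in 9 of 43, within the wild-type range in 20 and below all wild-type arrays in 14. Of the 17 members that were higher without overlap on the other 5 arrays, it stood above wild type in 5 (Ndufs7, Ndufa11, Ndufa5, Ndufa7 and Ndufb10), within range in 9 and below in 3 (Ndufv2, Ndufc2 and Ndufa4).

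The wild-type arrays themselves were ordered across members. Wild-type replicate 2 was the highest of the 3 in 27 of 43 members, or 62.8%, where it was the highest in 32.6% of all genes. Wild-type replicate 3 was the lowest in 22 members, or 51.2%, against 31.5% of all genes. Many members were thus high or low together from array to array inside a group, and they are not independent of each other. The median deviation of the 18 membrane arm genes from their wild-type means was 0.01, 0.21 and 0.19 for Hspa4-/- replicates 1, 2 and 3 and −0.01, 0.10 and −0.09 in wild type.

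The spread of whole arrays went with these medians, and its part in them was not tested. For Hspa4-/- replicates 1, 2 and 3 the SD of all values was 1.20, 1.25 and 1.27, and for wild type it was 1.23, 1.25 and 1.19. The 3 arrays with the widest spread, Hspa4-/- replicates 2 and 3 and wild-type replicate 2, were also those with the highest membrane arm medians. Quantile normalisation, which gives every array the same distribution, lowered the median difference of the members from 0.09 to 0.06 with 6 arrays and from 0.11 to 0.08 with 5, and left 30 and 29 of 43 members above wild type. Under it Ndufb8 differed by 0.46 and Ndufb7 by 0.35 with 5 arrays. Of the genes left after dropping the lowest 50% by mean value, which held 41 members, the median difference with 5 arrays was 0.04 over all genes and 0.11 over the members.

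**Figure D4:**
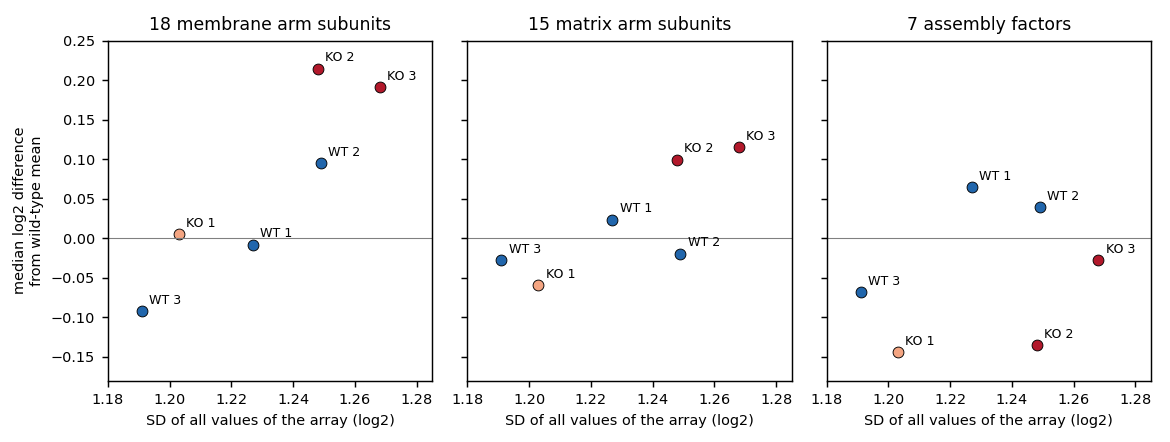
Median log2 deviation from the wild-type mean (y axis) against the SD of all log2 values of the array (x axis), for 18 membrane arm subunits, 15 matrix arm subunits and 7 assembly factors. Each point is 1 array (pale, Hspa4-/- replicate 1; dark red, Hspa4-/- replicates 2 and 3; blue, wild type). The membrane arm median ranges from −0.09 on the array with the narrowest spread to 0.21 on Hspa4-/- replicate 2, and the assembly factors show no such order.

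Other genes of the pathway gave 0 calls in either form (limma). Of 12 measured complex I assembly factors outside the Nduf names, 5 were higher and 7 lower with 6 arrays, and 6 and 6 with 5. Tmem186, a partner of the assembly complex for the ND2 module, read 7.32, 6.87 and 7.23 on the arrays labelled Hspa4-/- and 7.45, 7.55 and 7.55 in wild type, a 5-array difference of −0.47 (SE 0.11; limma, adjusted p = 0.0973). Tmem126b, of the same complex, read 7.60, 8.10 and 8.08 against 8.53, 8.26 and 8.40, a difference of −0.47 (SE 0.13) with 6 arrays and −0.30 (SE 0.09; limma, adjusted p = 0.173) with 5. Both were below wild type on all 3 arrays labelled Hspa4-/-, as Ndufaf1 was. Tmem126b passed with 5 arrays once wild-type replicate 2 was left out (−0.37, limma, adjusted p = 0.0412), where 4.32% of all genes passed.

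Of 15 measured regulators of respiratory genes, 9 were higher with 6 arrays and 13 with 5, with a 5-array median of 0.04. The coactivators Ppargc1a and Ppargc1b, which raise transcription of mitochondrial genes, lay on opposite sides of wild type. Ppargc1b read 8.74, 8.93 and 8.76 against 8.36, 8.69 and 8.39 and differed by 0.33 (SE 0.10; limma, adjusted p = 0.272) with 6 arrays. Ppargc1a read 8.96, 9.01 and 8.79 against 9.03, 9.08 and 9.13 and differed by −0.16 (SE 0.07; limma, adjusted p = 0.465). Neither passed, and neither overlapped between groups in either form. Ppargc1b passed with 5 arrays once wild-type replicate 2 was left out (0.47, limma, adjusted p = 0.025), where 4.32% of all genes passed.

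The other respiratory complexes also had medians above wild type. Subunits of complexes II, III, IV and V had median 5-array differences of 0.13 (4 genes), 0.12 (7), 0.24 (11) and 0.10 (11), beside 0.16 over the 33 core and accessory subunits of complex I. With 6 arrays the medians were 0.14, 0.13, 0.15 and 0.10, beside 0.13. Of these subunits 0 passed (limma). The members with the smallest p of each complex with 5 arrays were Sdhd (0.19, adjusted p = 0.282) and Sdhb (0.14, adjusted p = 0.426) of complex II and Uqcrh (0.33, adjusted p = 0.0999) and Uqcrq (0.43, adjusted p = 0.205) of complex III. Those of complex IV were Cox4i1 (0.33, adjusted p = 0.132) and Cox8a (0.39, adjusted p = 0.166), and those of complex V, the ATP synthase, were Atp5o (0.31, adjusted p = 0.137) and Atp5k (0.38, adjusted p = 0.145). Without wild-type replicate 2, the 5-array adjusted p of Uqcrh, Uqcrq, Cox4i1, Cox8a and Atp5k was between 0.0123 and 0.0359 (limma). With 6 arrays Uqcrq (0.60, adjusted p = 0.037) and Cox8a (0.48, adjusted p = 0.0445) passed there (limma). Leaving out that array raised the share of all genes that passed from 0.44% to 4.32% with 5 arrays and from 0% to 0.553% with 6. Among 10 measured mitochondrial genes outside the chain, such as citrate synthase and the porins, 5 were higher with 6 arrays and 7 with 5, with medians of 0.02 and 0.08. Immt, which shapes the cristae, differed by 0.19 and the porin Vdac2 by 0.32 with 5 arrays (limma, adjusted p = 0.26 and 0.263). With 6 arrays Vdac2 differed by 0.20, and with 5 it was 0.11 without Hspa4-/- replicate 3 and 0.54 without replicate 2. At an unadjusted p under 0.05 (limma), 0 of these 10 genes were higher with 6 arrays and 2 lower, Hspd1 (−0.23) and Idh3a (−0.19). With 5 arrays 4 were higher and 0 lower. The backgrounds were 5.64% and 5.53% of all genes with 6 arrays and 8.55% and 6.36% with 5.

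Cell type markers differed in mean as well. Of the 10 cardiomyocyte genes, 9 were higher in both forms, with medians of 0.11 and 0.11, and their summed linear level was between 56050 and 58490 on the arrays labelled Hspa4-/- and between 52366 and 55514 in wild type. Of 6 macrophage markers (Cd68, Adgre1, Csf1r, Lyz2, Cd163 and Mrc1), all 6 were lower, with a 5-array median of −0.24 and summed levels between 1112 and 1239 against 1358 and 1429. Of 6 smooth muscle and pericyte markers, 5 were higher with 6 arrays and 6 with 5, with summed levels from 3999 to 5762 against 4004 to 4674. Fibroblast, endothelial, erythroid, skeletal muscle, atrial and adipocyte lists had 5-array medians between −0.06 and 0.19. None of these genes passed (limma, adjusted p of at least 0.078), and the part of cell makeup in the complex I values was not tested.

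Promoters were searched for the letters of 4 kinds of factor known to act on respiratory genes, since many subunits were high or low together. The windows, from RefSeq on GRCm38.p6, run from 250 bases before to 50 after the annotated start, and 37 of the 43 members matched. The letters sought on both strands were TCAAGGTCA for the oestrogen-related receptors, GCGCATGCG for NRF1, AAGATGGCG for YY1 and CCGGAAGT for ETS factors such as GABPA. GCGCATGCG overlaps its own reverse complement, and a gene with both was counted once. NRF1 letters were in 4 of 37 members, or 10.8%, and in 1.95% of all 27025 genes with a window. YY1 letters were in 5 members, or 13.5%, against 1.64%, ETS letters in 1 against 4.31%, and the receptor letters in 0 against 0.466%. A match describes the letters only.

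Of the 10 members with a match, the 3 with the smallest 5-array p were Ndufaf4, Ndufs7 and Ndufa11, and their matches are shown with the searched letters in capitals, 5′ to 3′ along the gene. The 2 NRF1 members are given as the 150 bases before the start: Ndufaf4, which was low on the arrays labelled Hspa4-/-, at chr4:24897933-24898082 (plus strand), and Ndufa11, which was high there, at chr17:56717612-56717761 (plus strand).
Ndufaf4: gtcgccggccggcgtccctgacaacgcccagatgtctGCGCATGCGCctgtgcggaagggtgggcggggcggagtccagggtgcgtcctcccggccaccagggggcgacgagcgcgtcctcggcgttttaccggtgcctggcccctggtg
Ndufa11: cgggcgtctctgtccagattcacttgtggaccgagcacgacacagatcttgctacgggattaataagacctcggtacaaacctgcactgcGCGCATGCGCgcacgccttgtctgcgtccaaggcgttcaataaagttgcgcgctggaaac
Both windows hold the same NRF1 palindrome. The 5-array differences of Ndufaf4 and Ndufa11 were −0.24 and 0.25 (limma, adjusted p = 0.215 and 0.306). The part of NRF1 in these values was not tested.

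For Ndufs7 the YY1 letters lie just after the start, at chr10:80249463-80249492 (plus strand), and 30 bases are shown beside the other 4 members with these letters, chosen after the search to show how alike the sites are: Ndufs6 at chr13:73328433-73328462, Ndufa9 at chr6:126849096-126849125, Ndufc1 at chr3:51408914-51408943 and Ndufs4 at chr13:114388045-114388074, all on the minus strand.
Ndufs7: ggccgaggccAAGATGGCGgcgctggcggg
Ndufs6: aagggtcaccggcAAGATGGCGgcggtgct
Ndufa9: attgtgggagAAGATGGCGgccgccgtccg
Ndufc1: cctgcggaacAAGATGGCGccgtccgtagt
Ndufs4: gcgtttgcctacaggAAGATGGCGgcggtc
In all 5 the letters read in the direction of the gene and begin at base 273 to 286 of the 300-base window. They contain ATG, and whether any of these is the start codon was not tested. Their 5-array differences were 0.21 for Ndufs7, 0.19 for Ndufs6, −0.11 for Ndufa9, 0.08 for Ndufc1 and −0.06 for Ndufs4. Their adjusted p was at least 0.272 (limma), and the part of YY1 in these values was not tested. The 7 members with the smallest 5-array p among those with a window, namely Ndufb8, Ndufb7, Ndufb6, Ndufv2, Ndufa6, Ndufb5 and Ndufs8, held none of the searched letters in it. Letters of any of the 4 kinds were in 10 of 37 members, or 27%, and in 7.93% of all genes with a window. Ndufb9 (limma, 5-array unadjusted p = 0.0018) had no window, and the count among the 7 was not tested.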

How the data were processed

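The authors deposited log2 values, 1 for each of 21225 probe sets and 6 arrays, and the submitters' processing notes name R 2.13.0 and affy as tools. The sources used here do not give how background, normalisation and probe summary were handled, and array SDs differ. No measure of background came with the table. The number of arrays limits the precision. Groups came from the sample titles. Of the probe sets, 20239 carried 1 gene symbol in the platform annotation and 986 none. All 43 members' gene numbers were found in RefSeq (GRCm38.p6).

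The values were used as deposited in a 2-group model fitted to all 20239 genes with lmFit and eBayes of limma 3.58.1 in R 4.3.3, with Benjamini-Hochberg adjustment over all of them and a threshold of 0.05. The fit was run on 6 arrays and on 5. Intervals are 95% from the moderated SE. The fit was tested on simulated data. No overlap means that every value of a group lies on 1 side of the other group. The members, gene lists, markers, motifs and the rule for named genes were chosen with earlier results of these data known. Named with differences were Hspa4, core subunits, assembly factors, other members with an unadjusted p under 0.05 in either form, and up to 2 genes with the smallest 5-array p of each other list. Further members named beside their ranges, and Hspd1 and Idh3a, were singled out after their values were seen. Alternatives were low-value filters, quantile normalisation, subtracted array medians, array weights, a trended robust prior, a replicate block and leaving out each array. Pseudocounts planned for linear values were not needed. A planned protein sequence was not used here.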

Additional observations from a re-analysis of the deposited data

How the results depend on the processing

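The count of members passing (limma, adjusted p under 0.05) was 0 with 6 arrays in every alternative run, and with 5 arrays it was 0 except for 2 with array weights and a range of 0 to 7 on leaving out 1 array each. The median difference of the members stayed positive in every alternative, from 0.06 to 0.11 with 6 arrays and 0.08 to 0.14 with 5. Members without overlap numbered from 11 to 22 with 6 arrays and from 23 to 34 with 5 when 1 array was left out. In these settings 20.7% to 33.3% and 42.3% to 59.5% of all genes were without overlap, since fewer arrays overlap less. With array medians subtracted the 6-array count fell from 10 to 7, or 16.3% of members, close to the 15.1% of all genes. The 5-array count was then 20, or 46.5% beside 32.2%. Hspa4 on 6 arrays was −2.54 with array weights (limma, adjusted p = 0.0488) and ranged from −2.89 to −1.54 without 1 array. Among named members, the sign turned in Ndufs3, Ndufv1, Ndufaf2, Ndufaf3 and Ndufaf5. Ndufaf2 was −0.0071 with quantile normalisation on 6 arrays. Ndufs3 was −0.067 with array weights on 6 arrays, −0.0202 with array weights on 5 and −0.0126 with quantile normalisation on 5. Without 1 array on 6 arrays, Ndufs3 ranged from −0.0831 to 0.1045, Ndufv1 from −0.0857 to 0.031, Ndufaf2 from −0.0864 to 0.1169 and Ndufaf5 from −0.023 to 0.0463. On 5 arrays, Ndufs3 ranged from −0.16 to 0.16, Ndufv1 from −0.10 to 0.13, Ndufaf2 from −0.0065 to 0.24, Ndufaf3 from −0.1353 to 0.0929 and Ndufaf5 from −0.0275 to 0.0612. The cause was not tested. Deviations from group means correlated at −0.17, 0.09 and −0.25 over all genes for the arrays numbered 1, 2 and 3. The highest correlation, 0.33, was between Hspa4-/- replicate 1 and wild-type replicate 3. Deviations within a group of 3 arrays sum to 0, so these values cannot decide whether the arrays were paired. Over all genes, calls ranged over these alternatives from 0 to 115 with 6 arrays (0 as reported) and from 2 to 875 with 5 (89 as reported). With the replicate number as a block, 0 members passed in either form, and the smallest adjusted p with 5 arrays was 0.0511 (limma, Ndufb8). The precision is limited by 3 mice a group: the 95% interval of a member reached 0.19 to either side of its difference at the median over members.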
